A study of Mus musculus with 16 samples.

Results

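Mandibular molar germs were taken from C57Bl6 mouse embryos at embryonic day 14.5, pooled by 4 germs from 2 embryos, and profiled on whole-transcript expression arrays. Of the 16 pools, 8 came from Rsk2-/Y males, in which exon 2 of the X-linked kinase gene Rsk2 (Rps6ka3) is removed, and 8 from wild-type (WT) littermates. The titles divide the pools into series coded ABH and AZN, each with 4 pools of either genotype. The methods name male embryos, none of them treated, and the whole germ with any tissue left on it was lysed, so that each value is an average over many cell types.

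The 16 pools carried different amounts of skeletal muscle transcript, and the account below concerns the 12 of 16 pools at the ends of that range. Each pool received a muscle score, the mean log2 signal of 6 sarcomere genes: Myl1 (a myosin light chain), Ttn (titin, the elastic ruler of the sarcomere), Neb (nebulin, which lines the thin filament), Tnni1 and Tnnc1 (subunits of troponin, the calcium switch) and Myh3 (embryonic myosin heavy chain). Within each series the 3 pools with the highest score were called muscle-rich and the 3 with the lowest muscle-poor, which gave 6 pools against 6. The groups were thus set by values measured on these same arrays. Differences between them are therefore given as descriptions with standard errors, without p-values for any gene. A difference is always the mean of the muscle-rich minus the mean of the muscle-poor pools on the log2 scale, fitted with the series as a term. In bulk samples such as these, fewer cells of a type and less RNA per cell cannot be told apart.

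Skeletal muscle of the jaw arises from head mesoderm beside the developing teeth and is not a tissue of the tooth germ itself. Committed myoblasts express the transcription factors Myf5 and Myod1, leave the cell cycle under Myog, and fuse into multinucleated fibres. The young fibre then builds sarcomeres, in which myosin thick filaments pull on actin thin filaments between Z-discs, and clusters acetylcholine receptors where a motor nerve makes contact. Embryonic fibres use their own isoforms of many contractile proteins, and adult isoforms replace these around and after birth.

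The score separated the groups by about the same distance in both series. Muscle-rich pools averaged 9.60 ± 0.68 (SD, n = 6) and muscle-poor pools 8.01 ± 0.30 (SD, n = 6). The difference in mean score was 1.63 within ABH and 1.54 within AZN. In the ABH series the muscle-poor pools lay at 7.71, 7.77 and 7.77 and the muscle-rich pools at 8.78, 9.11 and 10.25. In the AZN series they lay at 8.12, 8.28 and 8.42 and at 9.36, 9.51 and 10.56. A single pool thus stood well above the rest in each series, ABH_14A and AZN_MolairesMutant3, both Rsk2-/Y. The edges of the groups were not equally sharp. The last muscle-rich AZN pool had a score of 9.36 and the nearest pool left out 9.34, while the corresponding ABH values were 8.78 and 8.29. On the lower side, the last muscle-poor pool and the nearest pool left out were at 7.77 and 7.86 in ABH and at 8.42 and 9.06 in AZN.

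**Figure D1:**
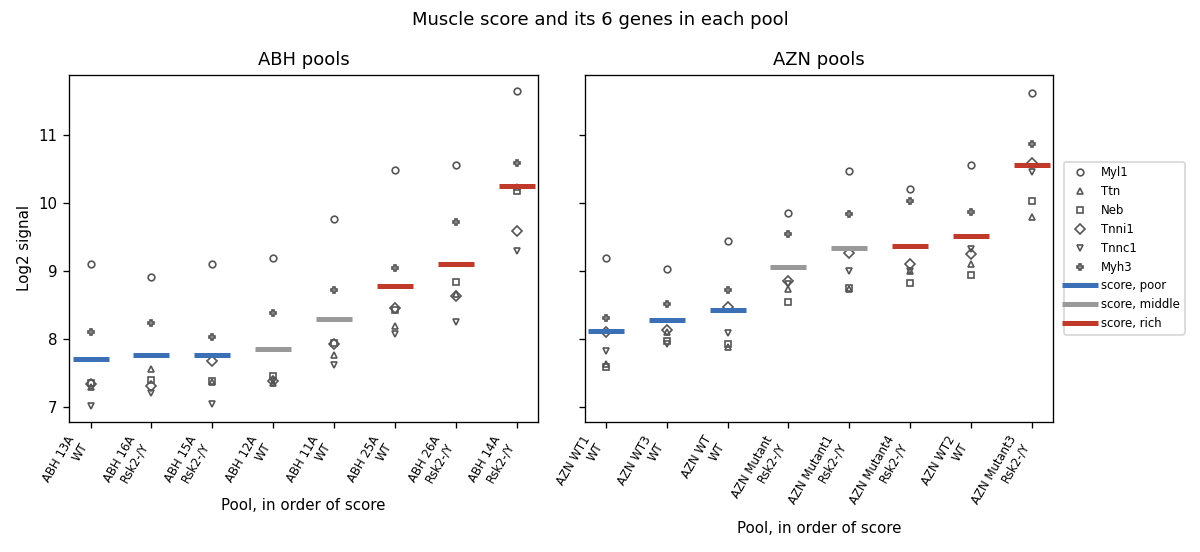
Log2 signal of the 6 scoring genes (open symbols) and their mean, the muscle score (horizontal bars), in each of the 16 pools, ordered by score within the ABH series (left) and the AZN series (right); bar colour gives the group. All 6 genes are highest in ABH_14A and AZN_MolairesMutant3, whose scores are 10.25 and 10.56.

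Genotype, which the score did not use, was split unevenly, a split that did not pass the test. The muscle-rich group held 4 Rsk2-/Y and 2 WT pools and the muscle-poor group 2 Rsk2-/Y and 4 WT pools (two-sided Fisher's exact test, p = 0.567). In the AZN series all 3 muscle-poor pools were WT, whereas the ABH muscle-poor pools were 1 WT and 2 Rsk2-/Y. The muscle-rich pools were 1 WT and 2 Rsk2-/Y in either series. The test took both series together, so it does not address the split within AZN. Signal of Rps6ka3 itself ran from 9.68 to 10.40 in muscle-poor and from 9.61 to 10.40 in muscle-rich pools. That probe set cannot check the labels, since the deletion takes out 1 exon. Signals of 3 Y-linked genes (Eif2s3y, Kdm5d and Uty) were between 8.23 and 9.15 in all 16 pools. Xist, the RNA that silences an X chromosome in female cells, was at 7.41 in ABH_15A, 6.68 in AZN_MolairesWT1 and 6.14 in ABH_13A, all of them muscle-poor, and between 5.02 and 5.81 in the other pools. These 3 pools went against the stated sex in that measure, and ABH_15A is one of the pools labelled Rsk2-/Y. Whether they held RNA of female embryos was not tested. Array medians were 6.80 to 6.94 in muscle-rich and 6.74 to 6.88 in muscle-poor pools. Between 27171 and 27885 probe sets of 35556 were above a signal of 5 in muscle-rich pools and between 26865 and 27738 in muscle-poor pools. The deposited values were quantile-normalized, which makes arrays alike in such measures, so these values do not compare the amount or quality of RNA.

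Outside the scoring genes, the genes that followed the score by at least 1.5-fold without overlap were mostly muscle genes. They were higher where the score was higher. A gene was counted when its difference was at least 1.5-fold and its 3 muscle-rich and 3 muscle-poor pools did not overlap in either series. Of 17209 genes, 60 were higher by this rule (0.349% of all genes tested) and 0 were lower (0%). The 60 differences had a median of 0.92 and ran from 0.60 to 1.63. Their median was 0.92 in ABH and 0.94 in AZN, beside a median of -0.01 over all genes. Of the 60 genes, 44 belonged to lists of skeletal muscle genes and 16 to none of them. Those 44 made up 27.7% of the 159 measured list genes. With genotype as a covariate 38 genes were higher, and without ABH_14A and AZN_MolairesMutant3, the pools with the highest scores, 31 were. Without the 3 pools with raised Xist, which leaves 1 muscle-poor pool in ABH and 2 in AZN, 69 genes were higher, 54 of them among the 60, and 6 were lower. At a fold of at least 2, 26 genes were higher (0.151%) and 0 lower. At a fold of at least 1.2, 87 were higher (0.506%) and 14 lower (0.0814%). With overlap ignored, 74 genes (0.43%) were at least 1.5-fold higher and 5 (0.0291%) as much lower. Without a limit on the fold, 116 genes (0.674%) were higher and 133 (0.773%) lower in all pools of both series without overlap. Of the 116 higher genes, 58 belonged to the skeletal muscle lists, and of the 133 lower genes, 1 did. With overlap ignored as well, 7408 genes (43%) had a difference above 0 and 9801 (57%) below.

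**Figure D2:**
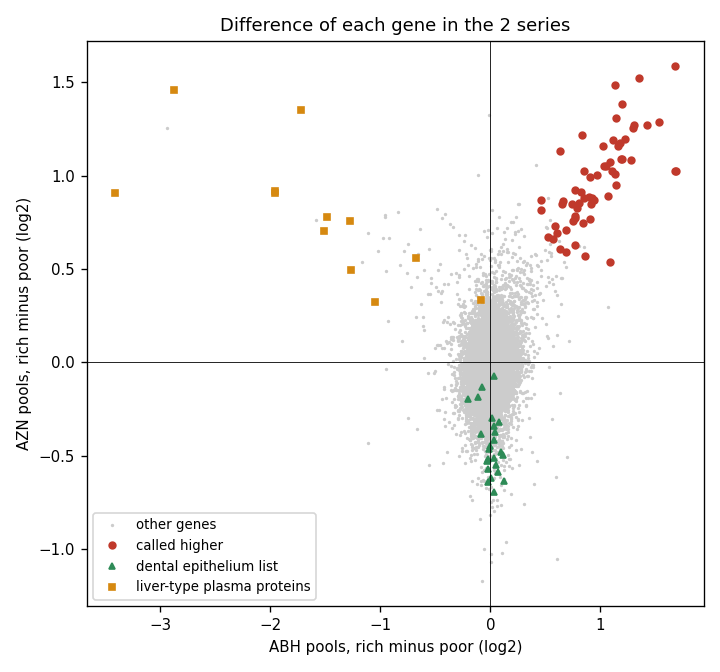
Difference between muscle-rich and muscle-poor pools (log2) of every gene in the ABH series (x axis) and the AZN series (y axis), without the 6 scoring genes. The 60 genes called higher (red) lie up and to the right with medians of 0.92 and 0.94, dental epithelium genes (green) lie near 0 in ABH and below 0 in AZN, and genes of liver-type plasma proteins (orange) take opposite signs.

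The pools left out of the groups took intermediate values. For all 60 genes, the mean of the 2 middle pools lay between the muscle-poor and the muscle-rich mean in both series. ABH_14A was the highest ABH pool for 59 of the 60 genes and AZN_MolairesMutant3 the highest AZN pool for all 60. Over all 16 pools, the slope of a gene on the score, in log2 units of signal per log2 unit of score and with the series as a term, had a median of 0.60 over the 60 genes. Single slopes ran from 0.38 to 1.03, and the median slope over all genes was -0.01. Fitted in the 8 WT pools alone the median was 0.545 and in the 8 Rsk2-/Y pools alone 0.66. Without ABH_14A and AZN_MolairesMutant3 it was 0.49, and without the 3 pools with raised Xist 0.64. The genes were picked by their separation along this same score, which fixed the sign of these slopes. That choice also favoured intermediate values in the middle pools and top values in ABH_14A and AZN_MolairesMutant3. The counts of such genes are therefore no separate support.

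Of 18 measured thick filament genes, 7 were called higher in muscle-rich pools. The other 11 had differences between 0.02 and 0.51, and the list median was 0.30. Myl4, the embryonic and atrial essential myosin light chain, had a lowest, median and highest signal of 8.63, 9.02 and 9.47 in muscle-poor pools and of 9.82, 10.28 and 11.36 in muscle-rich pools. No muscle-rich pool of either series fell as low as any muscle-poor pool, and the difference was 1.41 (SE 0.21). Myh8, the perinatal myosin heavy chain, ran from 6.73 over 7.20 to 7.52 and from 7.80 over 8.50 to 9.36, a difference of 1.35 (SE 0.22). Myh7, the slow and cardiac beta heavy chain, ran from 6.59 over 6.93 to 7.39 and from 7.38 over 8.01 to 8.62, a difference of 1.14 (SE 0.18). With the series side by side, its lowest muscle-rich pool was just under its highest muscle-poor pool, but within each series the groups were apart. The myosin heavy chain genes are close paralogs, and how far their probe sets share sequence was not tested.

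Heavy chains of adult fast fibres differed less. Myh1 (type IIx) lay at 5.27 to 5.56 in muscle-poor and 5.56 to 6.46 in muscle-rich pools, a difference of 0.39 (SE 0.12) without overlap within either series. Myh2 (type IIa), with medians of 6.46 and 6.49, differed by 0.10 (SE 0.09), and Myh4 (type IIb), with a median of 5.45 in both groups, by 0.05 (SE 0.07). Signals of Myh4, and of Myh1 in muscle-poor pools, were close to the limit of 5, where the processing compresses values. Among light chains, Mylpf, the regulatory light chain of fast fibres, was higher by 0.94 (SE 0.14), while the slow and ventricular chains Myl3 and Myl2 differed by 0.13 (SE 0.08) and 0.10 (SE 0.06). Of the myosin-binding proteins, slow-type Mybpc1 was higher by 1.06 (SE 0.18) and Mybph by 0.77 (SE 0.19), while fast-type Mybpc2 and cardiac Mybpc3 differed by 0.08 (SE 0.06) and 0.02 (SE 0.07).

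Thin filament genes had the highest median of any list, 0.74, with 12 of 15 members above 0 and 8 called. Acta1, the actin of skeletal muscle, had 8.39, 8.84 and 9.40 as lowest, median and highest muscle-poor signal and 9.53, 10.05 and 11.03 as muscle-rich signal. Actc1, the cardiac actin that embryonic skeletal muscle also uses, had 9.68, 10.25 and 10.76 against 11.07, 11.39 and 12.21. No muscle-rich pool of any series reached down to a muscle-poor pool for either gene, and both differed by 1.35 (SE 0.22 and 0.20). Their differences were also alike by series, 1.68 for both in ABH and 1.02 and 1.03 in AZN. These actins are near-identical proteins, and cross-hybridization between their probe sets was not tested.

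Troponin T was higher in all its 3 forms, the cardiac and embryonic Tnnt2 by 1.23 (SE 0.20), the fast Tnnt3 by 0.98 (SE 0.17) and the slow Tnnt1 by 0.80 (SE 0.23). Fast troponin C (Tnnc2) was higher by 0.83 (SE 0.17). Fast troponin I (Tnni2) differed by 0.38 (SE 0.11) with overlapping pools, and cardiac Tnni3 by 0.10 (SE 0.05). Of the tropomyosins, which cover the myosin-binding sites of actin, Tpm2 was higher by 0.60 (SE 0.12), whereas Tpm1 and Tpm3, which are also made in non-muscle cells, had differences of -0.07 (SE 0.06) and -0.19 (SE 0.06). Tpm3 has 4 probe sets, whose differences ran from -0.19 to 0.11, and the value given is that of the probe set with the highest mean. Tmod1, which caps the slow-growing end of the thin filament, passed 1.5-fold with a difference of 0.735 (SE 0.20) but overlapped in ABH, and its other probe set gave 0.06.

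**Figure D3:**
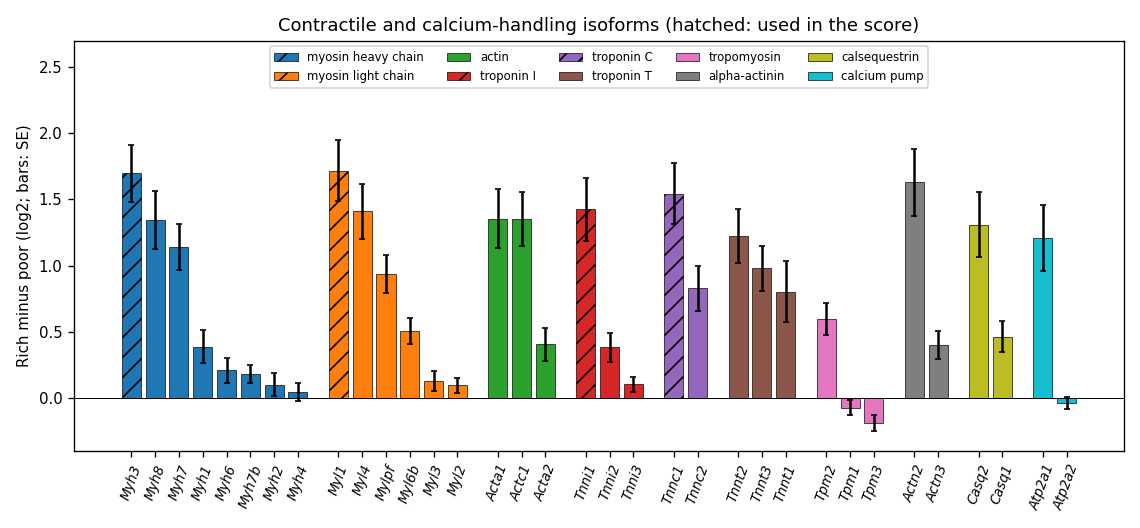
Difference between muscle-rich and muscle-poor pools (log2; error bars are standard errors of the fit) of contractile and calcium-handling isoforms, grouped by protein family and coloured by family; hatched bars are scoring genes. The perinatal Myh8 (1.35) and embryonic Myl4 (1.41) stand above the adult fast heavy chains Myh2 (0.10) and Myh4 (0.05). Signals of Myh4 are close to the limit of 5. Fast forms of other families run from Tnni2 (0.38) to Atp2a1 (1.21).

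The Z-disc and M-band list held the gene with the highest difference of all. Actn2, the alpha-actinin that anchors thin filaments at the Z-disc, had 7.64, 8.01 and 8.54 as lowest, median and highest muscle-poor signal and 8.89, 9.54 and 10.81 as muscle-rich signal. Its difference was 1.63 (SE 0.25), or 3.09-fold, in the range of the scoring genes themselves, which differed by 1.42 to 1.72. The pools separated completely even with the series side by side, and the slope on the score was 1.03 (SE 0.03). Of the 39 measured members of this list, 37 were above 0 and 13 were called, with a median of 0.39. Klhl41, a kelch protein needed for sarcomere assembly, had 6.40, 6.90 and 7.59 against 7.40, 8.39 and 10.07 and differed by 1.44 (SE 0.27). Here the muscle-poor AZN pools overlapped the muscle-rich ABH pools, while within each series the groups were apart. Others called were the small muscle protein Smpx at 1.27 (SE 0.26), the Z-disc proteins Myoz2 at 1.18 (SE 0.21) and Myot at 1.16 (SE 0.23), and the intermediate filament desmin (Des) at 1.05 (SE 0.21). The M-band bridge genes Myom2, Myom1 and Myom3 differed by 0.98, 0.84 and 0.64. Actn3, the alpha-actinin of fast fibres, differed by 0.40 (SE 0.10).

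Genes of excitation-contraction coupling, which release and recover calcium in the fibre, followed the score to different degrees. Of 23 measured members 21 were above 0 and 4 were called, with a median of 0.28. Casq2, a calcium store of the sarcoplasmic reticulum, had 5.44, 5.93 and 6.43 in muscle-poor and 6.31, 7.31 and 8.54 in muscle-rich pools, a difference of 1.31 (SE 0.25). Atp2a1, the calcium pump of fast fibres, differed by 1.21 (SE 0.25), and Atp2a2, the pump found in most cell types, by -0.04 (SE 0.04). The calcium channels of the triad, Ryr1 and Cacna1s, were higher by 0.90 (SE 0.17) and 0.70 (SE 0.16). Trdn (triadin) was not called, at 0.19 (SE 0.12), but its 9 probe sets ran from 0.06 to 1.34, and those at 0.88 and 1.03 had no overlap within either series.

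Among the myogenic regulators, Myog and Smyd1 had the highest differences. Of 19 measured regulators, 14 were above 0 and 5 were called, with a median of 0.20. Myog, the factor that starts terminal differentiation, had 6.02, 6.72 and 7.18 as lowest, median and highest muscle-poor signal and 7.08, 7.57 and 9.04 as muscle-rich signal. Within each series the groups did not overlap, and the difference was 1.09 (SE 0.19). Smyd1, a methyltransferase of sarcomere assembly, was higher by 1.05 (SE 0.25) and the cofactor Vgll2 by 0.87 (SE 0.17). Myod1 had 6.88, 7.33 and 7.84 against 7.49, 8.09 and 9.33, a difference of 0.79 (SE 0.19). Myf5 had 5.43, 6.09 and 6.36 against 6.30, 6.49 and 7.47, a difference of 0.71 (SE 0.19).

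The other 14 regulators were not called. Mef2c, which drives contractile genes together with the myogenic factors, differed by 0.40 (SE 0.15), Pax7, a marker of muscle progenitors, by 0.37 (SE 0.13), and Cdon, a surface receptor of myoblasts, by 0.28 (SE 0.17). Eya4 and Myf6, the latter a factor of mature fibres, both differed by 0.20 (SE 0.11 and 0.07), and the signal of Myf6 was low, with medians of 5.63 in muscle-poor and 5.90 in muscle-rich pools. Sox6 (0.08), Prox1 (0.07), Mef2a (0.05), Igfn1 (0.00), Mef2d (0.00), Eya1 (-0.08), Six4 (-0.08), Nfix (-0.10) and Pax3 (-0.11) had standard errors of 0.05 to 0.16. Factors that mark head muscle progenitors before commitment gave 0 called of 9 measured and a median of 0.07. Among these, Ebf2 differed by 0.45 (SE 0.23), Msc by 0.20 (SE 0.14), Ebf3 by 0.20 (SE 0.21), Lhx2 by 0.12 (SE 0.09), Isl1 by 0.07 (SE 0.15), Ebf1 by 0.00 (SE 0.07), Tcf21 by -0.05 (SE 0.08), Tbx2 by -0.06 (SE 0.09) and Tbx1 by -0.26 (SE 0.16). Migrating limb and tongue myoblasts, which have their own set of factors, likewise gave 0 called of 7 measured and a median of -0.07. Since 0.349% of all genes were called, a count of 0 does not set lists this short apart from other genes.

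Fusion and innervation genes accompanied the contractile ones. Mymk (myomaker), the membrane protein that makes myoblasts fuse, had 7.16, 7.47 and 8.08 in muscle-poor and 8.05, 8.66 and 10.13 in muscle-rich pools, a difference of 1.29 (SE 0.25). Its partner Mymx (myomixer) differed by 0.26 (SE 0.13) and was not called. The fusion list had 12 of 13 members above 0, a median of 0.26 and 4 called, among them the muscle cadherin Cdh15 at 0.75 (SE 0.22).

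At the neuromuscular junction, Chrna1, the alpha subunit of the muscle acetylcholine receptor, had 6.22, 6.89 and 7.46 against 7.06, 7.68 and 9.66. The groups were apart within each series, and the difference of 1.14 carried the widest standard error of the genes described so far, 0.33. The beta subunit Chrnb1 was higher by 0.62 (SE 0.15). The gamma and delta subunits Chrng and Chrnd differed by 0.65 (SE 0.21) with overlap and by 0.56 (SE 0.17) without, and the adult epsilon subunit Chrne by 0.02 (SE 0.07). Musk, the kinase that organizes the receptors, was higher by 0.89 (SE 0.20) and Ache, which breaks down acetylcholine, by 0.64 (SE 0.15). The list had 10 of 14 members above 0 and a median of 0.38. The nerve signal agrin (Agrn) and its receptor Lrp4 had differences of -0.09 (SE 0.07) and -0.02 (SE 0.09).

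Metabolic genes of working muscle differed less. Of 20 measured, 17 were above 0 with a median of 0.20, and only the glycogen phosphorylase Pygm was called, at 0.61 (SE 0.12). Fabp3, a fatty acid carrier, passed 1.5-fold at 0.64 (SE 0.22) with overlapping pools. Myoglobin (Mb) lay at 6.31 to 6.85 in muscle-poor and 6.68 to 7.39 in muscle-rich pools, a difference of 0.37 (SE 0.10), and the muscle creatine kinase Ckm differed by 0.41 (SE 0.13).

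Promoters of called genes were read for the binding motifs of the myogenic factors and of MEF2 factors. The sequences below are the 250 bases upstream of the annotated start, from RefSeq on GRCm38.p6, written 5′ to 3′ on the gene's strand. They show genes of high difference from a kelch protein, a Z-disc protein, a receptor subunit and an actin. Capitals mark CAGCTG, the E-box form bound by myogenic factors, and the consensus MEF2 motif. Klhl41 (chr2:69669870-69670119, plus strand) and Myoz2 (chr3:123034988-123035237, minus strand) hold both, Chrna1 (chr2:73580339-73580588, minus strand) holds CAGCTG at 2 places, and Acta1 (chr8:123894776-123895025, minus strand) holds CAGCTG at 1.
Klhl41: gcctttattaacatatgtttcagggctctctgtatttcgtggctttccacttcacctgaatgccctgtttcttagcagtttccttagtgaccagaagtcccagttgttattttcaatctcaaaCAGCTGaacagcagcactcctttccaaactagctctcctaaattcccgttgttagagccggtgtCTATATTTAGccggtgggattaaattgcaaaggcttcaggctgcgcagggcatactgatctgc
Myoz2: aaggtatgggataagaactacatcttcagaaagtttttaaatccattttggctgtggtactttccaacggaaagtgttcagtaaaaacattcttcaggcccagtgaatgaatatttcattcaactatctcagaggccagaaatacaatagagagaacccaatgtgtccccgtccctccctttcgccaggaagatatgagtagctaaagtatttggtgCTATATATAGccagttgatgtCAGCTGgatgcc
Chrna1: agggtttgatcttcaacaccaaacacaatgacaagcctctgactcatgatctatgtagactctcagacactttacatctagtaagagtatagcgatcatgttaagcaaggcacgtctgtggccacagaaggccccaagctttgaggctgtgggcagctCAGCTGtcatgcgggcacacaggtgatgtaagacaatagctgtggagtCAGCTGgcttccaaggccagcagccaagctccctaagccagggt
Acta1: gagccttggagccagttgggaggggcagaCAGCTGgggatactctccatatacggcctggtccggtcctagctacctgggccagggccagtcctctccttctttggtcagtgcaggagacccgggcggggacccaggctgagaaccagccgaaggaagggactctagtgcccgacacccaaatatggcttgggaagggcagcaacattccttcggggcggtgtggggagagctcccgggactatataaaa

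A promoter was found for 49 of the 60 called genes and for 13519 genes in all. CAGCTG, which reads the same on both strands, lay in the promoters of 20 of the 49 (40.8%) and of 15.1% of all genes. The MEF2 motif, searched on both strands, lay in 9 of the 49 (18.4%) and in 2.13% of all genes, and both together in 5 (10.2%) and 0.451%. Where a gene had several promoters, a match in any of them was counted. The promoters of Actn2, Myl4, Actc1 and Myog held neither motif in this window. A match is a run of letters in the reference and no measurement of binding. In Myoz2, Alpk3 and Myom3 the MEF2 match began 33, 35 and 35 bases before the start, where a TATA box can lie. Whether these matches are TATA boxes was not tested.

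Called genes outside the muscle lists were few, and several have a known place in muscle. Hjv (hemojuvelin), a BMP co-receptor of iron balance made in liver and skeletal muscle, had 6.41, 7.07 and 7.36 as lowest, median and highest muscle-poor signal and 7.35, 8.15 and 9.76 as muscle-rich signal, a difference of 1.29 (SE 0.26). Rxrg, a retinoid X receptor, had 6.34, 6.76 and 7.25 against 7.20, 7.75 and 9.34, a difference of 1.16 (SE 0.24). Both were apart within each series. Apobec2, a muscle member of a deaminase family, was higher by 1.08 (SE 0.28), the actin-binding Ablim3 by 1.07 (SE 0.20), and the cytokine gene Il17b by 1.04 (SE 0.22).

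Mstn, which encodes myostatin, the secreted inhibitor of muscle growth, had 5.40, 5.47 and 5.96 against 5.54, 6.54 and 7.95, a difference of 1.03 (SE 0.30). Its muscle-poor AZN pools were spread, with AZN_MolairesWT1 at 5.47 beside 5.95 and 5.96. Fgf6, a fibroblast growth factor of developing muscle, was higher by 0.80 (SE 0.17). Prr32 differed by 0.88 (SE 0.21), Arpp21 by 0.87 (SE 0.21), the kinase-domain gene Alpk3 by 0.84 (SE 0.21), Atp1b4 by 0.81 (SE 0.17) and the sarcomere protein Mypn by 0.77 (SE 0.17). The remaining 4 were Fitm1, a lipid droplet protein, at 0.75 (SE 0.21), Thbs4 at 0.67 (SE 0.18), Tppp3 at 0.66 (SE 0.17) and the RNA-binding Rbm24 at 0.65 (SE 0.18). Atp1b4 differed more in ABH (1.09) than in AZN (0.54), while Prr32 had the opposite order (0.63 and 1.13), and these contrasts between series were not tested.

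**Figure D4:**
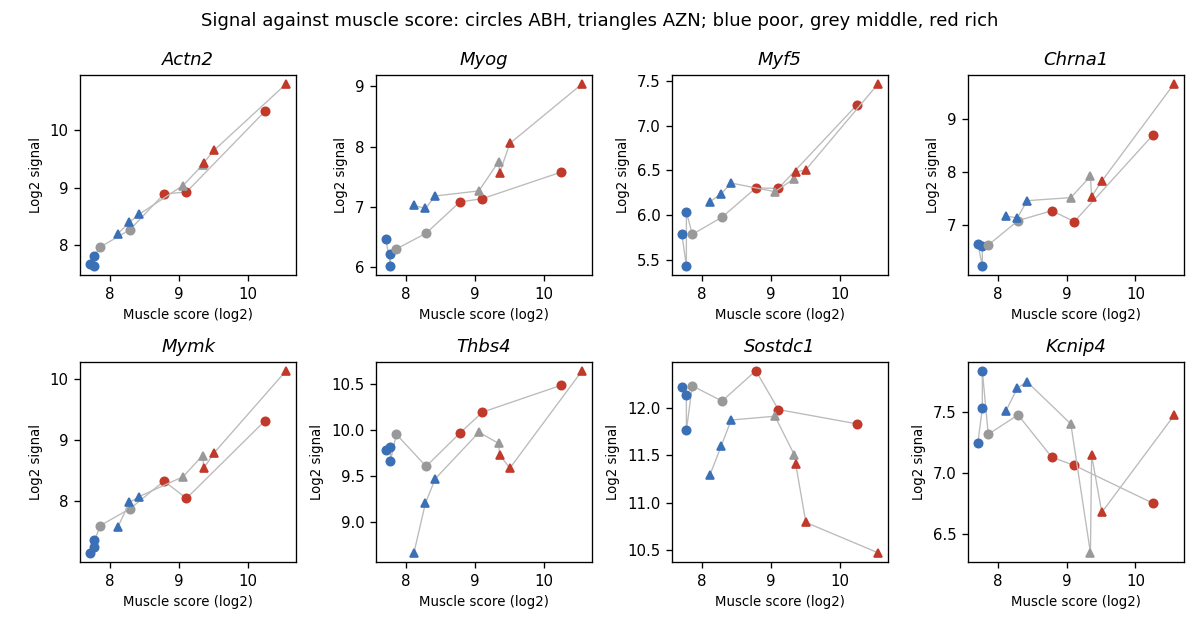
Log2 signal of 8 genes (y axis, own scale in each panel) against the muscle score (x axis, log2) in the 16 pools, with circles for ABH, triangles for AZN, lines joining pools of a series in order of score, and colour for the group. Actn2 climbs with the score with a slope of 1.03. Sostdc1 has a lower muscle-rich mean in the AZN series only (-0.70 against 0.04 in ABH), with overlapping pools, and Kcnip4 is scattered.

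Connective tissue and the other muscle types had list medians between -0.02 and 0.05. Thbs4, a thrombospondin of the tendon and the muscle attachment, was the only called member of 22 tendon and connective tissue genes. It had 9.66 to 9.81 in muscle-poor and 9.96 to 10.48 in muscle-rich ABH pools, and 8.66 to 9.47 and 9.58 to 10.64 in AZN. Scx, the tendon progenitor factor, differed by 0.32 (SE 0.13), Tnmd by 0.19 (SE 0.11) and Mkx by 0.18 (SE 0.08). Of the 22 members 9 were above 0 and 13 below, among them Dpt at -0.53 (SE 0.34) and Egr2 at -0.29 (SE 0.34). The list median was -0.02. Cardiac muscle genes had a median of 0.05 with 0 of 12 called. Of all genes 0.349% were called, so that 0 called does not set this list or the lists below apart. Of the 12, 9 were above 0 and 3 below, beside 43% of all genes above 0. The highest were Myh6 at 0.21 (SE 0.09) and Nppb at 0.13 (SE 0.07), while Nppa, Nkx2-5 and Gata4 differed by 0.00, -0.01 and 0.02. The mean of that list was 6.03 to 6.20 in muscle-poor and 6.09 to 6.32 in muscle-rich pools. Smooth muscle and pericyte genes had a median of -0.02 with 0 of 16 called, and their one member above 0.1 was Acta2, at 0.40 (SE 0.12), which young skeletal muscle is also known to make. Cartilage genes had a median of 0.01 (0 of 17 called) and osteoblast genes a median of 0.17 with 9 of 10 above 0 and 0 called. Without AZN_MolairesMutant3 the osteoblast median was 0.001, and the mean of the list was 10.63 in that pool beside 9.70 and 9.71 in the other muscle-rich and 9.66 to 9.99 in the muscle-poor AZN pools. Among osteoblast genes the standard errors of Phex, Ifitm5 and Ibsp, 0.27 to 0.35, were close to or above their differences of 0.18 to 0.32.

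**Figure D5:**
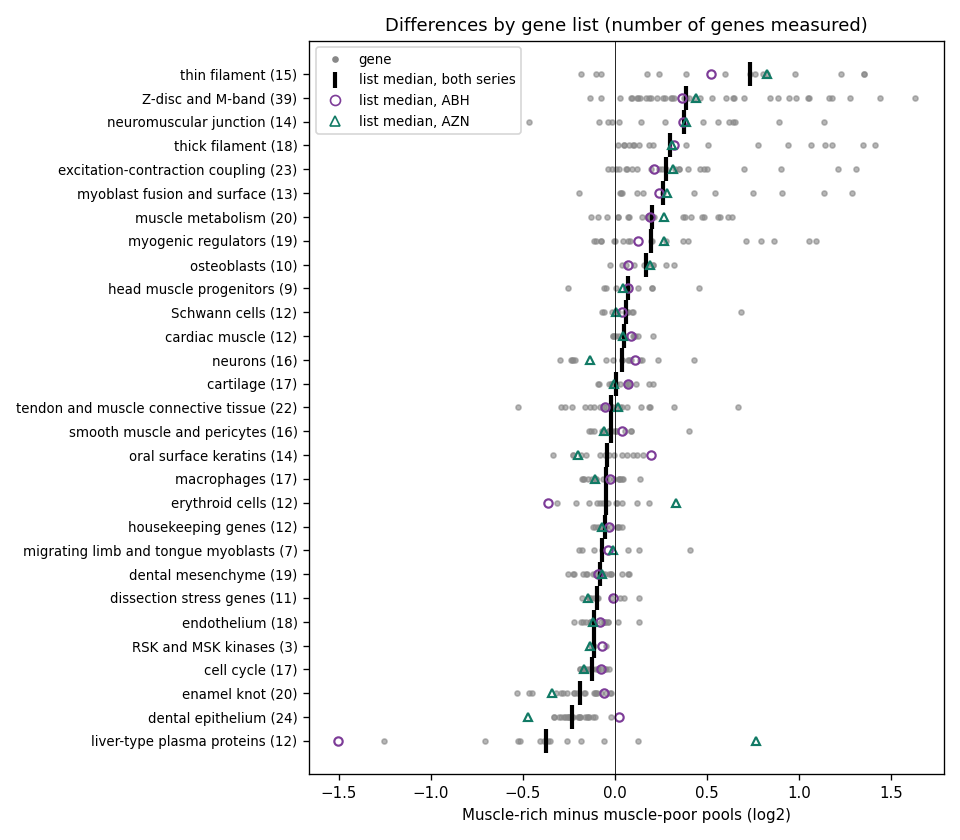
Difference between muscle-rich and muscle-poor pools (log2) of each measured gene (grey dots) by list, with the list median over both series (black bar) and within ABH (circle) and AZN (triangle). Muscle lists lead with medians of 0.20 to 0.74, and the series part ways for dental epithelium and liver-type plasma proteins.

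Epithelial genes of the tooth germ had differences below 0, mainly in the AZN series. All 24 measured dental epithelium genes had a difference below 0, with a median of -0.23, against 57% of all genes below 0. The median was 0.02 within ABH and -0.47 within AZN. The mean signal of the list was 9.59 to 9.84 in muscle-poor and 9.55 to 9.96 in muscle-rich ABH pools, so that the groups overlapped. In AZN it was 9.77 to 10.02 in muscle-poor and 9.30 to 9.61 in muscle-rich pools without overlap. The AZN muscle-poor pools were all WT, and with genotype as a covariate the list median was -0.12. Sostdc1, a secreted Wnt and BMP inhibitor of the dental epithelium, was 12.22, 12.13 and 11.76 in muscle-poor and 12.39, 11.98 and 11.83 in muscle-rich ABH pools, and 11.29, 11.60 and 11.87 against 11.41, 10.79 and 10.47 in AZN. The groups overlapped in both series, with a difference of 0.04 in ABH and -0.70 in AZN.

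Enamel knot genes, which mark the signalling centre that shapes the crown, had 20 of 20 members below 0 and a median of -0.19, which was -0.06 in ABH and -0.34 in AZN. Shh, the ligand made there, was 9.96, 9.21 and 8.58 in muscle-poor and 9.66, 9.12 and 8.99 in muscle-rich ABH pools, which overlapped. In AZN it was 8.67, 9.14 and 9.30 against 8.25, 7.83 and 7.83, without overlap, a difference of -1.07. The enamel knot median was -0.15 with genotype as a covariate and -0.24 to -0.11 when each pool was left out in turn, nearest to 0 without AZN_MolairesWT. The slope of Shh on the score was -0.32 in all pools, -0.19 with genotype as a covariate, -0.60 in WT pools alone and -0.09 in Rsk2-/Y pools alone. Etv5 and Etv4, transcription factors of the FGF response, differed by -0.47 (SE 0.18) and -0.45 (SE 0.19) with overlapping pools. Dental mesenchyme genes had 16 of 19 members below 0 and a median of -0.08, which was -0.09 in ABH and -0.07 in AZN, with Pax9 at -0.23 (SE 0.13), Dlx2 at -0.25 (SE 0.15) and Msx1 at -0.07 (SE 0.11). Cell cycle genes had 17 of 17 members below 0 and a median of -0.12, with Ccnd1 at -0.19 (SE 0.07), and endothelial genes 16 of 18 and a median of -0.11. No gene of these lists was called, beside 0.349% of all genes called higher and 0% called lower. What part epithelium content has in the muscle differences was not tested, but with the epithelium mean as a covariate 34 genes were called higher.

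The 14 genes that were lower at the 1.2-fold limit without overlap, a selection made with their values in view, had no list in common. Kcnip4, a potassium channel partner, had the lowest difference, with 7.24, 7.61 and 7.83 as lowest, median and highest muscle-poor signal and 6.68, 7.09 and 7.47 as muscle-rich signal. Its groups did not overlap within a series and differed by -0.55 (SE 0.13), just short of the 1.5-fold limit, while the middle AZN pool AZN_MolairesMutant1 was lowest of all at 6.35. The chemokine gene Cxcl14 differed by -0.48 (SE 0.11), the adhesion protein gene Emb by -0.39 (SE 0.09) and Etv1, another factor of the FGF response, by -0.35 (SE 0.09). The other 10 were Ruvbl2, Alx1, Ide, Tarm1, Cavin1, Zfp518a, Lrr1, Sdf2l1, Cdca7 and Wbp11, between -0.33 and -0.26.

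Blood- and nerve-related lists showed no steady relation to the score. Genes of plasma proteins made in the liver took opposite signs, with a list median of -1.50 in ABH and 0.77 in AZN. Albumin (Alb) was 11.95, 7.47 and 10.61 in muscle-poor and 6.77, 6.92 and 6.10 in muscle-rich ABH pools, and 10.60, 8.14 and 7.59 against 12.05, 10.28 and 6.71 in AZN. The ABH groups were apart, with muscle-poor pools higher, and the AZN groups overlapped. The 3 pools with raised Xist were also the 3 muscle-poor pools with the highest Alb, and without them the list median over both series was 0.62 in place of -0.37. Erythroid genes had medians of -0.36 in ABH and 0.33 in AZN. Neuron, Schwann cell and macrophage lists had medians of 0.04, 0.06 and -0.05 with 0 called, beside 0.349% of all genes called. Their widest member difference was that of Fabp7, a lipid carrier of glia, at 0.68 (SE 0.28). Oral surface keratins had a median of 0.20 in ABH and -0.20 in AZN. Dissection stress genes and housekeeping genes had medians of -0.10 and -0.05.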

How the data were processed

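Signals came from Affymetrix Mouse Gene 1.0 ST arrays. The authors deposited log2 values made by RMA in Expression Console (version 1.3.1.187, per the submitters' processing notes), which adjusts background, quantile-normalizes arrays and summarizes probes, so that overall shifts between pools are removed and low signals are compressed. No value was rescaled here. Precision is limited by how many arrays there are. Of 35556 probe sets, 21789 had 1 gene symbol, 1621 several and 12146 none in the platform annotation, and only the first were used. Probe sets above a signal of 5 in at least 1 of 16 pools were kept (18834), and each of 17215 genes was read from its probe set with the highest mean.

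Pools were grouped by the muscle score within each series of title codes. What the codes stand for is not given in the sources used here. Differences and moderated standard errors came from limma 3.58.1 (lmFit and eBayes, R 4.3.3) with the series as a term. Other steps used Python 3.11.15 and SciPy 1.17.1. No gene was tested, since the groups were formed from the same values, and Fisher's exact test was used for genotype only. The pools are separate samples, but no label ties them to litters. The scripts were tested on simulated data.

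The members and the 29 gene lists were chosen with earlier results of these data known. The rule for naming took the scoring genes, the 20 called genes with the highest difference and the 12 highest outside the muscle lists. It also took up to 4 genes per list by absolute difference, and all measured myogenic regulators, head muscle progenitor genes and RSK and MSK kinases. Not all of these are described above. Mylk4 differed by 1.18 (SE 0.26), Rps6ka6 by -0.13 (SE 0.07) and Rps6ka5 by -0.05 (SE 0.07). Other named genes were taken for their role or family after their values were seen. Alternatives were array centring, filters, folds, overlap and probe set rules, other scores, 4 or 2 pools a side, single series, covariates for genotype and epithelium, and leaving out each pool. Fits without both top-scoring pools and without the 3 pools with a Xist signal above 6 were added after seeing the data.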

Additional observations from a re-analysis of the deposited data

Results flagged for a closer look

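In 154 groups of 6 pools, each value taken as a log2 deviation from its series mean, 8 had an end pool set apart from the others by Dixon's criterion at the 95% level, and chance alone sets apart about 1 in 20. Several were low values of AZN_MolairesWT1 among the muscle-poor pools: Mstn at -0.92 (others -0.44 to -0.30), the mean of the dental mesenchyme list at -0.17 (others 0.02 to 0.13) and the mean of all skeletal muscle lists at -0.26 (others -0.20 to -0.17). The same pool was high for Sox6 at 0.29 (others -0.14 to 0.02). Among muscle-rich pools, AZN_MolairesMutant3 was high for Pax3 at 0.86 (others -0.38 to -0.03) and for Prox1 at 0.43 (others -0.06 to 0.11). ABH_25A was low for Eya4 at -0.34 (others 0.13 to 0.40) and high for the mean of the oral surface keratins at 0.59 (others -0.28 to -0.04).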

How the results depend on the processing

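The count of 60 genes higher was 26 at a fold of at least 2, 27 with 4 and 4 pools of each series, 95 with 2 and 2, 38 with genotype as a covariate, 34 with the dental epithelium mean as a covariate and 31 without both top-scoring pools. It was 47 to 72 when each pool was left out in turn, lowest without AZN_MolairesMutant3. Other alternatives gave 58 to 87. The count of 0 genes lower was 14 at a fold of at least 1.2, 9 with 2 and 2 pools, 20 in ABH alone, 38 in AZN alone and 6 without the 3 pools with Xist above 6. It was 2 without both top-scoring pools (Kcnip4 and Tbx18) and with a score from other sarcomere lists (Kcnip4 and Ppbp). It was 1 with centred arrays (Ppbp) and with either covariate (Kcnip4), and 0 to 2 when each pool was left out. The dental epithelium median of -0.23 was 0.020 in ABH, -0.47 in AZN and -0.012 with its own mean as a covariate, and the enamel knot median of -0.19 was -0.34 in AZN. The median slope of the called genes, 0.60, was 0.545 in WT pools, 0.66 in Rsk2-/Y pools and 0.49 without both top-scoring pools. The cause of these shifts was not tested. The 42 named genes that were called had differences of 0.38 to 1.95 over the alternatives, with a sign fixed by how they were picked. No paired analysis was possible because the replicate numbers were given in accession order and tie no pools together.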

Other observations

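Non-coding transcripts of the Meg3 region were looked at after their values were seen. All 30 measured microRNA probe sets of the region had a difference above 0, with a median of 0.29 (0.21 in ABH and 0.36 in AZN) and 0 called or without overlap. The other 161 microRNA probe sets had 147 above 0 and a median of 0.12, so that most microRNA probe sets lay above 0. Meg3, the long non-coding RNA from which the region takes its name, had 10.61, 10.99 and 11.51 as lowest, median and highest muscle-poor signal and 10.97, 11.61 and 11.82 as muscle-rich signal, with overlap and a difference of 0.47 (SE 0.16). Rian differed by 0.49 (SE 0.26). Small nucleolar RNA probe sets had a median of -0.09 in ABH and 0.42 in AZN. Probe sets of the muscle microRNAs Mir206, Mir1a, Mir133a and Mir499 stayed at 3.22 to 4.34 in the 16 pools, below the signal of 5 used as the limit.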
